A study of Mus musculus with 23 samples.

Results

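The 43 genes described here encode sensors of viral nucleic acid and their adaptors, interferon beta and its receptor, and proteins that interferon induces to block the growth of viruses. They were chosen by name, 43 of the 52636 genes in the deposited tables, and all 43 had enough counts to be tested. Their RNA was measured by sequencing in mouse BMDMs, macrophages that are differentiated in culture from marrow precursors. Of 23 libraries, 11 were labelled wild type (WT) and 12 Stk40 KO. The product of Stk40 is a kinase-like protein without catalytic activity that associates with COP1, a ubiquitin ligase. In each genotype the T0 group was untreated and the T6, T16 and T32 groups had received lipopolysaccharide (LPS), an outer membrane component of Gram-negative bacteria. No source used here gives the unit of time. Every group held 3 libraries, except WT at T16 with 2. The replicate numbers below were given here, in the order of deposit within each group. Equal numbers do not pair libraries of different groups. Neither the strain and age of the mice nor the kind of Stk40 allele is given in the sources used here. They also leave unsaid whether replicates were separate mice or cultures, or whether 1 mouse gave libraries at several times. The fit therefore treats all libraries as independent, and a p-value here covers the spread among these libraries alone, and part of it may be technical.

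RIG-I (Ddx58) and MDA5 (Ifih1) are helicases that bind viral RNA in the cytoplasm and signal through MAVS on mitochondria, and STING (Tmem173) relays the signal of cytoplasmic DNA. Both routes, and Toll-like receptor 4 when it binds LPS, lead to transcription of Ifnb1. Interferon beta then binds the receptor made of IFNAR1 and IFNAR2, and signalling from it turns on interferon-stimulated genes through a promoter element of repeated GAAA cores. Macrophages are known both to make interferon beta and to keep a low level of these genes without infection.

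To show that element in genes whose RNA levels are given below, promoter sequences were taken from RefSeq on GRCm38.p6, which held 33 of the 43 genes in windows of 300 bases, from 250 before to 50 after the transcription start. A pair of GAAA cores on the same strand with 2 bases of any kind between them, searched on both strands, was present in 9 of these 33 genes (27.3%), against 3.99% of all 27025 genes with a window. The stretches with a match upstream of the start are printed 5′ to 3′ on the strand of the gene, with the matched bases in capitals and positions counted from the transcription start. They lie upstream of Isg15 at chr4:156200855-156200916 (minus strand, positions -98 to -37), Ddx60 at chr8:61928014-61928086 (plus, -73 to -1), Bst2 at chr8:71537567-71537622 (minus, -150 to -95), Rsad2 at chr12:26456543-26456592 (minus, -140 to -91), Phf11b at chr14:59341351-59341400 (minus, -70 to -21) and Apobec3 at chr15:79892248-79892297 (plus, -160 to -111).
Isg15: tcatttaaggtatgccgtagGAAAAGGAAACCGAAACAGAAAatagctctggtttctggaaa
Ddx60: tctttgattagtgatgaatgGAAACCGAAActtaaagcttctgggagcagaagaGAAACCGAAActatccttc
Bst2: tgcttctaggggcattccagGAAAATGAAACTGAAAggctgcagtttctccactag
Rsad2: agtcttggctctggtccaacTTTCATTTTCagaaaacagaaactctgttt
Phf11b: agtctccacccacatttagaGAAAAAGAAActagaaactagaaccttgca
Apobec3: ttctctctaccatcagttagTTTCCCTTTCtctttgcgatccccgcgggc
Isg15 carried 3 overlapping matches, Bst2 2 overlapping ones, Ddx60 2 separate ones and the others 1, which in Rsad2 and Apobec3 was on the opposite strand. In Ddx58, Ifih1 and Eif2ak2 the match began at positions 3, 33 and 19 after the start. A match is a description of these letters, and a gene without one in its window is not thereby shown to lack the element.

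Total counts were 19455080 to 44097733 per library, and levels are CPM, counts brought to a common library size, after TMM scaling unless another scale is named. Stk40 RNA, the check on the labels, was not lower in KO-labelled libraries: it was 51.7 to 61.3 CPM against 39.7 to 52.5 CPM in WT at T0, and above every WT library at each LPS time point. A deleted exon would not be visible in counts per gene, and the genotypes are therefore taken from the labels alone. In 4 libraries some values stood apart from those of other libraries at the same time point. Mitochondrial genes took 0.355% of the counts in KO-labelled T0 replicate 1 and 1.38% to 1.82% in the other libraries at T0. Saa3, an acute-phase gene, was at 22930 and 24060 CPM in replicate 2 of WT and KO-labelled at T6, against 6342 to 11950 CPM in the other T6 libraries, and at 47810 CPM in WT T16 replicate 2 against 21830 to 30210 CPM at T16. With 2 libraries in WT T16, neither can be said to stand apart from its group. In other values replicate 1 differed from the rest of T16. Mitochondrial genes took 0.389% of its counts against 0.233% to 0.243%, and its Stk40 was at 96.0 against 143 to 166 CPM. Leaving out the 4 libraries keeps it as the only WT library at T16. Y-linked transcripts summed to 45.9 to 116 CPM in 4 WT libraries, namely replicate 2 at T0 and at T16, replicate 1 at T6 and replicate 3 at T32. Xist RNA was at 0.0717 to 0.467 CPM in these 4 and at 419 to 630 CPM in the other WT libraries, and every KO-labelled library had it too. The macrophage markers Adgre1, Csf1r, Cd68, Itgam, Mertk and Lyz2 summed to 13217 to 24351 CPM, T and NK cell markers to at most 1.08 CPM and erythroid markers to at most 0.831 CPM.

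Most of the 43 genes were higher in KO-labelled than in WT untreated macrophages. Of the 43 genes, 35 were higher, 1 was lower and 7 did not pass the test, an adjusted p under 0.05 by edgeR's quasi-likelihood test. Among all 15782 genes tested, 1.83% were called higher and 0.114% lower. The median log2 difference of the 43 genes was 1.27, against 0.0023 for all genes tested, and the median ratio of mean levels was 2.40. Ifi44 and Ifnb1 differed by 2.51 each, Phf11d by 2.04 and Rsad2, the antiviral enzyme viperin, by 1.82. The 1 gene that was lower was Ifi27. The 7 that did not pass fell into 2 kinds. Mavs, Ifnar1, Ifnar2 and Tmem173 had log2 differences of 0.09, 0.04, 0.08 and -0.15 with overlapping groups, and the first 3 turned slightly negative when libraries were scaled by their totals (-0.07, -0.11 and -0.07). Bst2, Dtx3l and Lgals3bp had differences of 0.96, 2.11 and 1.64 (adjusted p = 0.26, 0.22 and 0.084), with every KO-labelled library above every WT library. In all, 38 of the 43 genes were higher without overlap, against 8.79% of all genes, and 1 was lower without overlap, against 6.3%.

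The T0 count depended on the libraries used for the spread and on single libraries. With only the 6 T0 libraries in the fit 23 genes were called, and without WT T0 replicate 3 the number was 25. Of the 36 calls 17 held under every alternative, and 24 held when each library of the series was left out in turn. The 12 that did not were Apobec3, Cmpk2, Ddx60, Ifi27, Ifi35, Ifih1, Ifnb1, Isg15, Isg20, Mx2, Nmi and Uba7, all of which except Ifih1 were lost without WT T0 replicate 3. Ifih1 was lost without KO-labelled T0 replicate 1 (1.18, adjusted p = 0.068). KO-labelled T0 replicate 1 was the highest of its group for 32 of the 43 genes (39.8% of all genes), and without it 30 were called. Without the 4 libraries that stood apart 36 were higher and 1 lower (median 1.05), with Apobec3 and Cmpk2 lost and Bst2, Dtx3l and Lgals3bp gained. When the 4 WT libraries that carry Y-linked transcripts were left out 34 and 1 (median 1.34). Some markers of other cells also moved with genotype. Plasmacytoid dendritic cell markers, which belong to a cell known for making much interferon, summed to 4.01, 4.16 and 3.79 CPM in WT and 4.79, 9.63 and 5.16 CPM in KO-labelled libraries. Of these, 0 of the 4 tested passed by edgeR (1 at an unadjusted p under 0.05), Siglech had 8 to 30 counts per library, and the high sum of replicate 2 held 131 counts of Klk1. Neutrophil and precursor markers summed to 265, 304 and 165 CPM in WT and 399, 381 and 330 CPM in KO-labelled libraries, with Ly6g called of 6 tested. B cell markers summed to 5.65 to 12.1 CPM and stromal markers to 24.3 to 180 CPM over both genotypes, with 0 of 4 tested called in each by edgeR (2 and 0 at an unadjusted p under 0.05). Their part in the T0 differences was not tested. In these bulk samples, fewer cells of a type and less RNA per cell cannot be told apart.

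**Figure D1:**
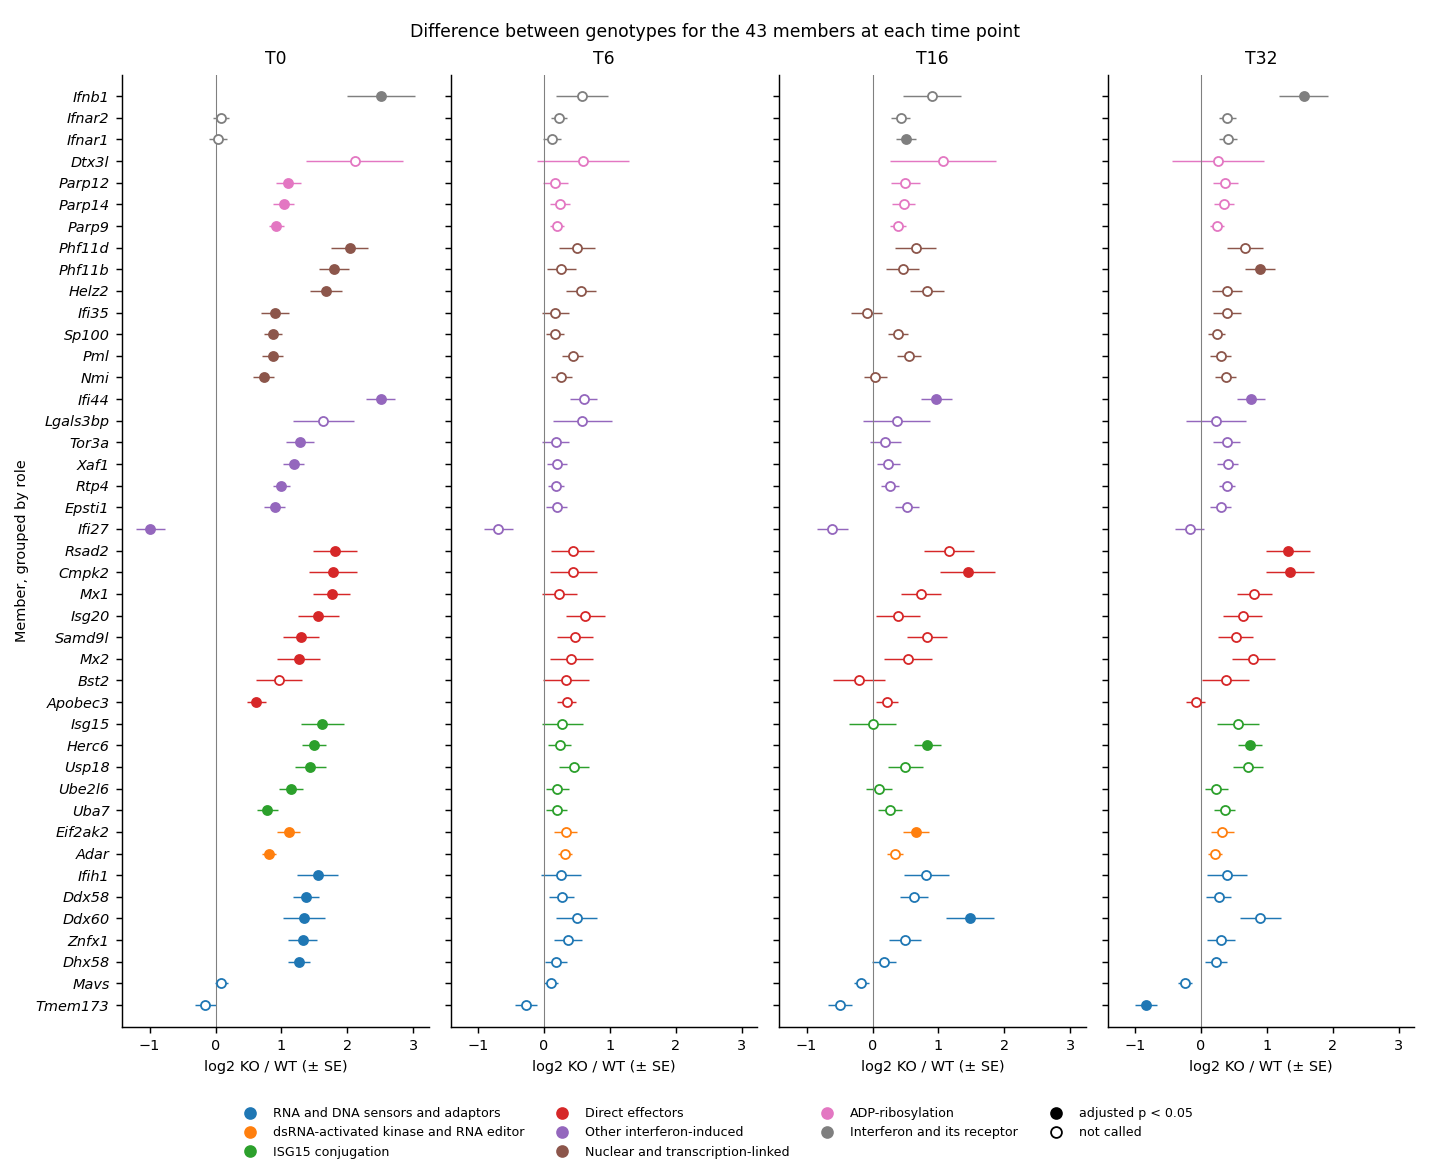
Log2 difference between KO-labelled and WT libraries (x axis, ± SE) for each of the 43 genes (y axis, coloured by role) at T0, T6, T16 and T32, from the edgeR fit over 23 libraries. Filled points passed at an adjusted p under 0.05: 36 at T0, 0 at T6, 6 at T16 and 7 at T32, and most points lie to the right of 0 in every panel.

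LPS raised almost all of the group in both genotypes, most strongly at T6. In WT 40 of the 43 genes rose at T6 (27.3% of all genes tested did), Mavs and Ifi27 fell (31.9% of all genes did) and Tmem173 did not pass. In KO-labelled libraries 40 rose (26.2%) and Mavs fell (32.4%). The median ratio of T6 to T0 mean levels was 7.80 in WT, from 0.428 for Mavs to 60.8 for Cmpk2, and 4.59 in KO-labelled libraries. T6 was the highest of the 4 time points for 37 genes in WT and 36 in KO-labelled libraries. By T16, 40 genes were above T0 and 1 below in WT (18.8% and 17.2% of all genes) and 39 and 2 in KO-labelled libraries (20.4% and 23.3%). By T32 the numbers were 39 and 1 in WT (24.5% and 21.9%) and 38 and 2 in KO-labelled libraries (18.2% and 20%). Between T6 and T32, 36 genes fell in WT (23% of all genes) and 37 in KO-labelled libraries (23.3%), with a median T32 level of 41.5% and 46.2% of that at T6. Only Mavs and Ifnb1 rose over that interval, in both genotypes (27.5% and 26.4% of all genes rose). Scaling by library totals alone moved the median of all genes at T6 to -0.94 in WT and -1.0 in KO-labelled libraries, so these changes are relative to the TMM scale; on totals 3 of the 43 genes fell at T6 in WT, Tmem173 among them at -0.71.

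Compared per length, as nRPKM, the most abundant of these RNAs in WT at T6 was Isg15 at 4590, followed by Rsad2 at 3340, Cmpk2 at 2181, Bst2 at 1522 and Mx1 at 863 nRPKM (means of 3). Ifnb1 was the least abundant at 2.89 nRPKM, below Mavs at 7.98 and Tmem173 at 19.7 nRPKM. In untreated WT cells the order was led by Bst2 at 428, Lgals3bp at 137 and Isg15 at 131 nRPKM, and Ifnb1 was again last at 0.268 nRPKM. The untreated KO-labelled level reached a median of 28.6% of the WT level at T6, from 5.66% for Cmpk2 to 249% for Mavs, where the untreated WT level was at a median of 12.8%.

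No gene of the 43 passed the test between genotypes at T6. By edgeR 0 of the 43 genes were called (0.209% of all genes were called higher and 0.0887% lower), 7 had an unadjusted p under 0.05, and DESeq2 called 1, Adar at 0.35. The median log2 difference was 0.26, the largest were 0.63 for Isg20 and 0.60 for Ifi44, and 15 genes were higher and 1 lower without overlap, against 5.96% and 5.08% of all genes. For 39 of the 43 genes the genotype difference was smaller at T6 than at T0, by a median of 0.94 on the log2 scale. The test of that change of the difference passed for 1 gene, Ifi44 (0.00634% of all genes were called higher and 0.095% lower), and 31 of the 43 had an unadjusted p under 0.05. DESeq2 called 14.

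At T16 and T32, 6 and 7 genes passed, with Cmpk2, Ifi44 and Herc6 at both. At T16, 6 were higher in KO-labelled libraries and 0 lower (4.16% and 3.48% of all genes tested). They were Ddx60 at 1.48, Cmpk2 at 1.44, Ifi44 at 0.97, Herc6 at 0.83, Eif2ak2 at 0.66 and Ifnar1 at 0.51. The share of members called, 6 of 43, rests on single libraries: 0 were called without KO-labelled T16 replicate 1 or without WT T16 replicate 2 (a fit with 1 WT library at T16, assumed to vary like the other groups), 1 without KO-labelled T16 replicate 3, and 11 without KO-labelled T6 replicate 2. It also moved with the tool, to 17 by DESeq2, and with the samples in the fit, to 0 with only the 5 T16 libraries. At T32, 6 were higher and 1 lower (3.05% and 3.34% of all genes): Ifnb1 at 1.56, Cmpk2 at 1.35, Rsad2 at 1.32, Phf11b at 0.89, Ifi44 at 0.76 and Herc6 at 0.74, and Tmem173 at -0.83. Here 1 was called without WT T32 replicate 1, without WT T32 replicate 2 or without KO-labelled T32 replicate 2, and 4 without KO-labelled T32 replicate 3. With only the 6 T32 libraries in the fit 15 were called, and by DESeq2 13. Tmem173 at T32 was the only call at these time points that every alternative kept. On library totals the calls were 4 higher and 1 lower (Tmem173) at T16, and 5 higher and 2 lower (Tmem173 and Mavs) at T32. Without overlap, 26 genes were higher and 3 lower at T16 (20.4% and 21.5% of all genes) and 26 and 2 at T32 (17.5% and 18.6%). The median log2 differences were 0.47 and 0.39. Marker sums of other cells also separated the genotypes at these time points. Neutrophil and precursor markers summed to 64.7 and 129 CPM in WT and 145 to 193 CPM in KO-labelled libraries at T16, and to 23.3 to 33.4 and 39.0 to 63.4 CPM at T32, and they were apart at T6 too (154 to 247 and 278 to 413 CPM). Stromal markers were at 317 and 345 CPM in WT at T16 and at 65.0 to 179 CPM in KO-labelled libraries. The macrophage sum was lower in KO-labelled libraries at T16 (16607 to 17769 against 19647 and 22288 CPM) and at T32 (17453 to 18477 against 19950 to 22326 CPM). Plasmacytoid dendritic cell markers at T32 were at 6.34 to 6.97 CPM in WT and 7.64 to 10.3 CPM in KO-labelled libraries, and B cell markers at 5.28 to 6.64 and 2.44 to 4.31 CPM. Conventional dendritic cell markers at T16 were at 3.90 and 5.04 CPM in WT and 5.93 to 9.17 CPM in KO-labelled libraries. Of single marker genes, Ltf of neutrophil precursors was higher (0.99) and Cd79b of B cells lower (-1.27) at T32. The part of these markers in the counts was not tested. The T16 calls of Ifi44 and Herc6 were lost without KO-labelled T16 replicate 1 or 3 or WT T16 replicate 2 (lowest 0.78 and 0.68), and their T32 calls without WT T32 replicate 1 or 2 or KO-labelled T32 replicate 2 (lowest 0.61 and 0.61), that of Ifi44 also without either replicate 3.

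Averaged over the 4 time points, 38 of the 43 genes were higher and 2 lower in KO-labelled libraries (12.1% and 10.3% of all genes), with a median difference of 0.54. The 2 lower genes were Ifi27 at -0.62 ± 0.11 and Tmem173 at -0.44 ± 0.09 (SE, edgeR adjusted p = 0.0006 and 0.0011). Mavs at -0.06, Bst2 at 0.36 and Dtx3l at 1.01 did not pass. On library totals Mavs was called lower (-0.23, adjusted p = 0.0055), and without the 4 libraries that stood apart Bst2 and Dtx3l passed (0.53 and 0.56; adjusted p = 0.00085 and 0.0026). Bst2 also passed without WT T16 replicate 2 (0.55), and Dtx3l by DESeq2, with RLE size factors and in 5 of the 23 cases with a library left out (up to 1.51 without WT T16 replicate 1). The call of Lgals3bp was lost in 12 of the 23 cases with a library left out. Of these 40 calls, 35 held under every alternative. Within WT, the library with Y-linked transcripts stood high for this group of genes. It was the highest of 3 for 37 of the 43 genes at T0 (33.4% of all genes), for 24 at T6 (29.0%) and for 40 at T32 (34.1%), and the higher of 2 for 28 at T16 (49.4%). Without these 4 libraries 14 genes were called at T32. At T16, where that leaves 1 WT library, assumed to vary like the other groups, the 6 calls were lost and 2 other genes passed, Rsad2 at 1.57 and Phf11b at 1.08 (adjusted p = 0.044 and 0.042). With Y-linked transcripts as a covariate 19 were called at T16 and 18 at T32.

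**Figure D2:**
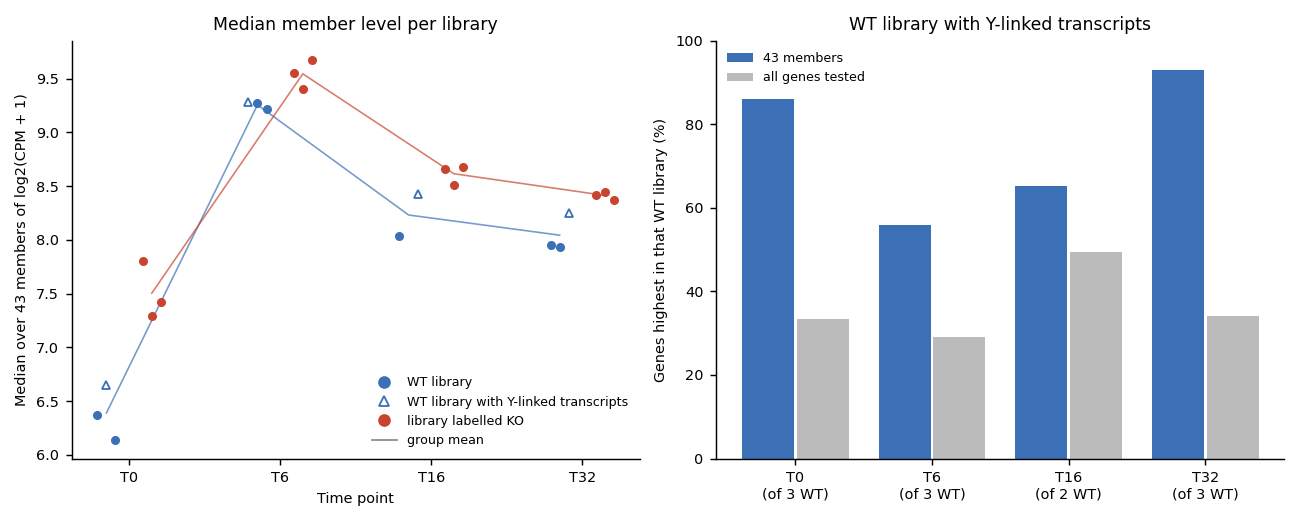
Left, the median over the 43 genes of log2(CPM + 1) in each library (y axis) by time point (x axis), with lines through group means. Right, the share of genes (%, bars from 0) for which the WT library with Y-linked transcripts was the highest WT library, for the 43 genes and for all genes tested. The KO-labelled medians lie above the WT medians at every time point, and open triangles mark the WT library with Y-linked transcripts.

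The interferon gene itself was scarce and took a course of its own. Ifnb1 (chromosome 4, 88522025 to 88522774 in GRCm38) had 7, 10 and 4 counts in WT at T0, which is 0.24, 0.359 and 0.0952 CPM, and 52, 33 and 39 counts or 1.31, 1.14 and 1.34 CPM in KO-labelled libraries, values being given in the order of replicates 1 to 3 here and below. T6 levels were 2.60, 2.29 and 2.20 CPM in WT and 2.80, 5.65 and 2.27 CPM in KO-labelled libraries, and T16 levels 1.09 and 2.93 CPM against 3.0, 3.80 and 4.25 CPM. T32 brought 3.74, 3.67 and 8.46 CPM in WT and 12.6, 18.4 and 15.4 CPM in KO-labelled libraries. The genotypes did not overlap at T0, T16 and T32 and overlapped at T6, and T32 was the highest time point in both. The genotype difference was 2.51 ± 0.51 at T0 and 1.56 ± 0.37 at T32 (edgeR adjusted p = 0.0091 and 0.014), and the T0 value rests on few counts. The T0 difference ran from 2.08 to 2.98 when libraries were left out in turn and did not pass without WT T0 replicate 3 (adjusted p = 0.097). That at T32 did not pass without WT T32 replicate 1 or 2 or KO-labelled T32 replicate 2 (1.35 to 1.41). From T6 to T32 Ifnb1 rose by 2.13 ± 0.39 in KO-labelled libraries and by 1.15 ± 0.39 in WT (edgeR adjusted p = 0.00012 and 0.019).

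Neither receptor chain differed detectably at T0. They lie 79648 bases apart on chromosome 16, Ifnar2 at 91372783 to 91405589 and Ifnar1 at 91485238 to 91507441. Ifnar1 was at 109, 119 and 102 CPM in WT and 123, 105 and 111 CPM in KO-labelled libraries at T0, and at 584, 464 and 465 against 625, 432 and 594 CPM at T6. Later it was at 262 and 250 against 380, 363 and 351 CPM (T16) and at 212, 188 and 228 against 285, 283 and 267 CPM (T32). The groups overlapped at T0 and T6 and separated at T16 and T32, with differences of 0.51 ± 0.15 and 0.41 ± 0.13 (edgeR adjusted p = 0.046 and 0.078). In the main fit, of all 23 libraries on the TMM scale without a covariate, Ifnar1 thus passed at T16 only. With Y-linked transcripts as a covariate (0.47) and by DESeq2 (0.43) its T32 difference passed. It also passed without the 4 libraries that stood apart and with only the T32 libraries (0.41 each). The T16 call was lost in 10 of the 23 cases with a library left out (adjusted p up to 0.27 without WT T16 replicate 2), and on library totals (0.34, adjusted p = 0.12). Ifnar2 was at 167, 155 and 132 CPM in WT and 164, 155 and 161 CPM in KO-labelled libraries at T0, and at 454, 482 and 347 against 498, 497 and 505 CPM at T6. T16 levels of Ifnar2 were 209 and 268 against 317, 315 and 332 CPM, and T32 levels 168, 170 and 172 against 218, 213 and 241 CPM. KO-labelled libraries were all above WT from T6 on, but no single time point passed in the main fit (0.23, 0.43 and 0.40, with edgeR adjusted p = 0.63, 0.069 and 0.067). Ifnar2 passed at T16 and T32 with Y-linked transcripts as a covariate (0.50 and 0.44) and by DESeq2 (0.44 and 0.41). Without the 4 libraries that stood apart its T16 value was 0.62, with WT T16 replicate 1 alone in its group, and it passed at T32 (0.40). The averages of both did, at 0.27 ± 0.07 and 0.28 ± 0.07 (adjusted p = 0.0084 and 0.0041), though not on library totals (0.10 and 0.12; adjusted p = 0.24 and 0.11).

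Of the 7 sensors and adaptors, the 5 helicases and helicase-like proteins were higher at T0 and the adaptors Mavs and Tmem173 were not. Ddx58 (RIG-I, chromosome 4, 40203773 to 40239828) was at 86.9, 113 and 82.7 CPM in WT and 301, 210 and 223 CPM in KO-labelled libraries at T0. LPS took it to 1010, 765 and 1019 against 1231, 824 and 1311 CPM at T6. It stood at 486 and 355 against 682, 616 and 655 CPM at T16 and at 448, 415 and 531 against 542, 624 and 510 CPM at T32. Only at T0 and T16 were all KO-labelled libraries above all WT libraries, and T0 alone passed in the main fit (1.38 ± 0.19, edgeR adjusted p = 0.00032). Its T16 difference passed by DESeq2 (0.65) and without KO-labelled T6 replicate 2 (0.64). Ifih1 (MDA5, chromosome 2, 62595798 to 62646255) was at 30.7, 34.8 and 29.8 CPM against 136, 61.7 and 81.9 CPM at T0, with KO-labelled replicate 1 far above the other 2. T6 levels of Ifih1 were 1148, 656 and 1385 against 1468, 684 and 1667 CPM, the low value of each genotype being replicate 2, a library that stood apart. Its T16 levels were 229 and 157 against 359, 312 and 348 CPM, and its T32 levels 224, 204 and 259 against 287, 348 and 270 CPM. The T0 difference of Ifih1 was 1.55 ± 0.31 (edgeR adjusted p = 0.0072), and LPS raised it by 5.06 ± 0.36 in WT, the third largest rise of the group.

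Ddx60, a helicase described as a cofactor of RIG-I, was at 43.5, 47.9 and 39.6 CPM in WT and 139, 92.5 and 101 CPM in KO-labelled libraries at T0. At T6 it reached 253, 171 and 298 against 392, 193 and 433 CPM. At T16 it was at 235 and 85.6 CPM in WT against 465, 425 and 452 CPM, and at T32 at 221, 190 and 282 against 381, 519 and 391 CPM. The groups did not overlap except at T6, and KO-labelled levels at T32 overlapped those at T6. The T16 difference of 1.48 ± 0.36 (edgeR adjusted p = 0.019) was 0.93 without WT T16 replicate 2, whose 85.6 CPM lay far below replicate 1, and then did not pass (adjusted p = 0.26). It was also lost without KO-labelled T16 replicate 1, at 1.45 (adjusted p = 0.056), and was 2.39 without WT T16 replicate 1. The T32 difference of Ddx60 did not pass in the main fit, but did by DESeq2 (0.92) and with only the T32 libraries (0.91). Dhx58 (LGP2, the RIG-I-like receptor without a signalling domain) and Znfx1, an RNA helicase on mitochondria, were higher at T0 by 1.27 ± 0.17 and 1.32 ± 0.22 (edgeR adjusted p = 0.00018 and 0.0014) and did not pass later.

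Mavs (chromosome 2, 131234063 to 131248025) went the other way with LPS. It was at 66.1, 63.0 and 59.3 CPM in WT and 76.5, 60.1 and 63.8 CPM in KO-labelled libraries at T0, and at 26.2, 26.6 and 27.8 against 30.9, 27.6 and 28.1 CPM at T6. T16 brought it back to 75.8 and 71.8 against 64.1, 69.7 and 62.8 CPM, and T32 to 71.4, 72.9 and 69.6 against 61.3, 59.1 and 60.1 CPM. The adaptor thus fell at T6 by 1.22 ± 0.10 in WT and by 1.21 ± 0.10 in KO-labelled libraries (edgeR adjusted p = 3.2e-09 and 3.7e-09), when the receptors upstream of it were at their highest, and was not below T0 afterwards in WT. At T16 and T32 every KO-labelled library was below every WT library, with differences of -0.17 and -0.24 that did not pass (adjusted p = 0.35 and 0.18). Under some alternatives Mavs was called lower at T32. These were without the 4 libraries that stood apart (-0.24, edgeR adjusted p = 0.029) and with only the T32 libraries (-0.24, adjusted p = 0.039). On library totals it was called too (-0.43, adjusted p = 0.021).

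Tmem173, which encodes STING, was the only sensor or adaptor called lower in KO-labelled libraries in the main fit. Its T0 levels were 46.1, 49.4 and 43.3 CPM in WT and 42.2, 44.7 and 37.9 CPM in KO-labelled libraries, and its T6 levels 63.0, 38.1 and 47.4 against 46.8, 34.6 and 41.2 CPM. T16 levels were 33.7 and 48.2 against 27.7, 30.3 and 29.4 CPM. T32 levels were 46.1, 56.6 and 47.9 against 25.6, 29.8 and 29.0 CPM. The groups overlapped at T0 and T6 and separated at T16 and T32, where the differences were -0.49 ± 0.18 and -0.83 ± 0.17 (edgeR adjusted p = 0.10 and 0.0048). Over all alternatives the T32 value lay between -1.03 and -0.74. Within genotype, Tmem173 did not change from T0 to T32 by a margin that passed in WT (0.12 ± 0.17, adjusted p = 0.57), whereas it fell by 0.56 ± 0.17 in KO-labelled libraries (adjusted p = 0.011). That contrast between genotypes did not pass its own test (-0.68 ± 0.23, adjusted p = 0.27).

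**Figure D3:**
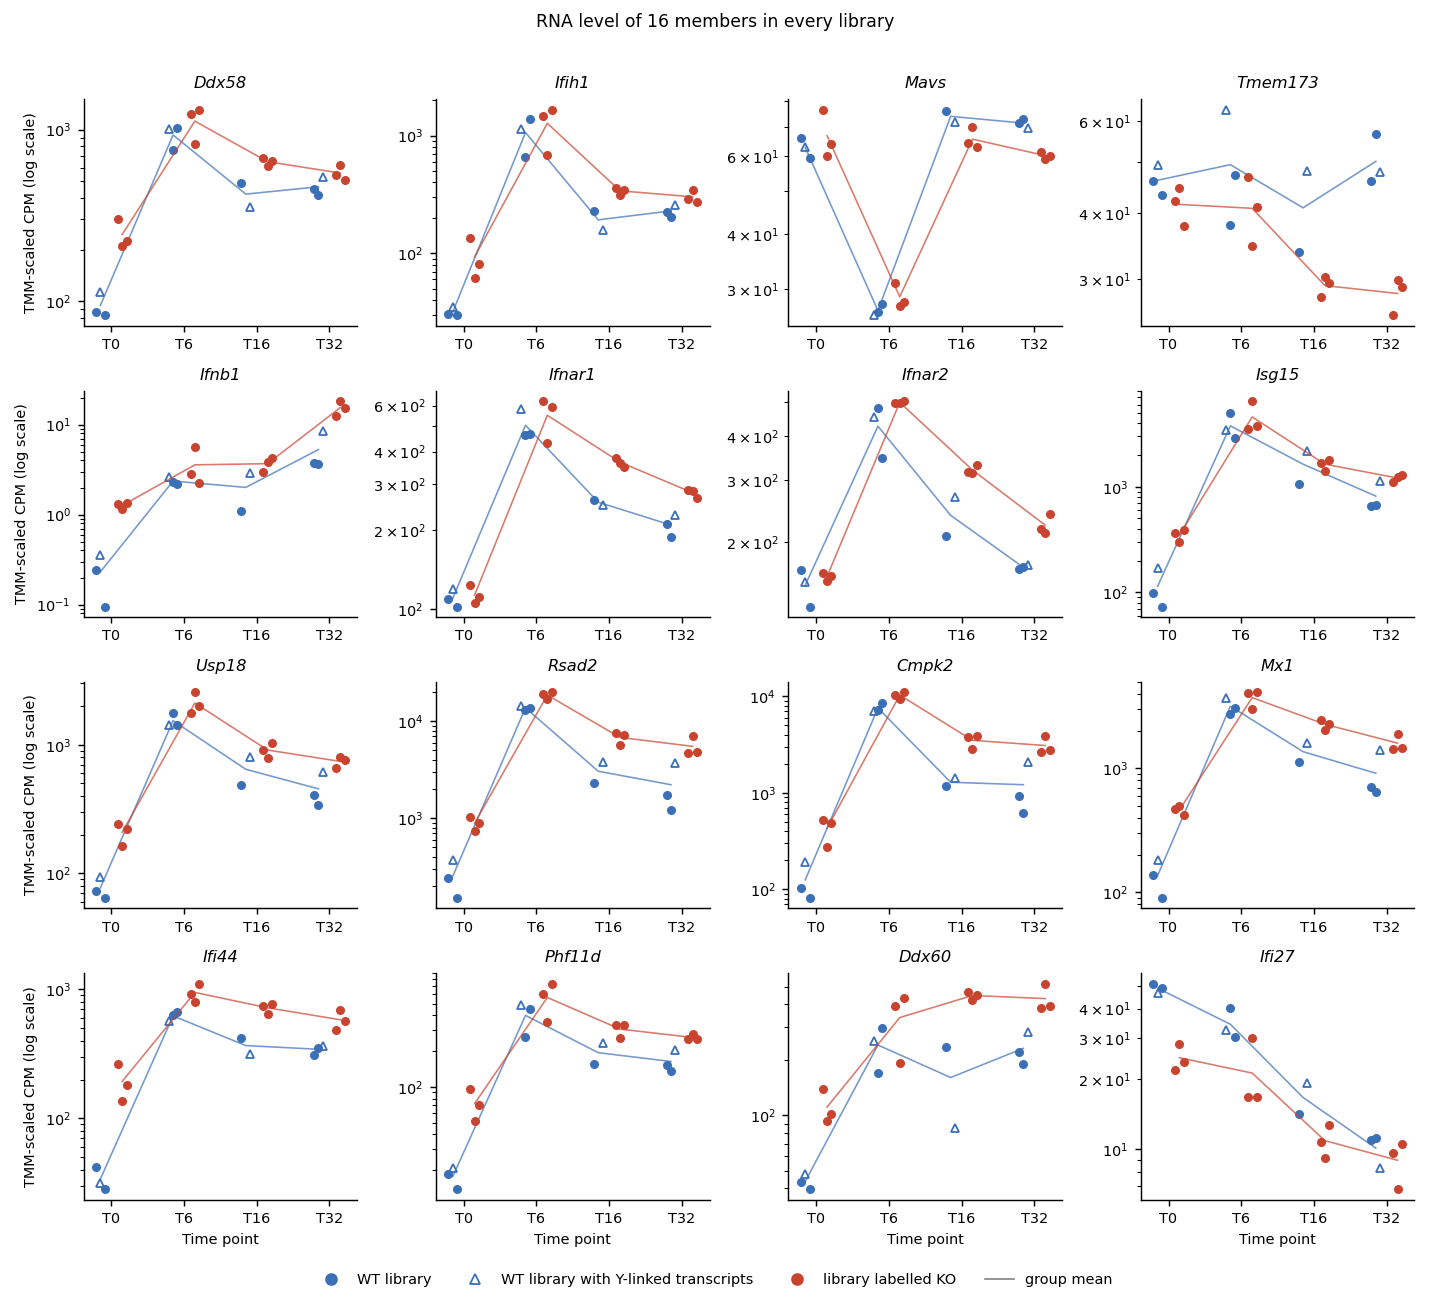
TMM-scaled CPM (y axes, log scale) of the 16 genes given in full, in every library at T0, T6, T16 and T32 (x axis). Each point is a library, open triangles are the WT libraries with Y-linked transcripts and lines join group means; Mavs dips at T6, Ifnb1 is highest at T32 and Ifi27 declines, while the others rise at T6 except Tmem173.

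The kinase PKR (Eif2ak2), which double-stranded RNA activates to stop translation, and the editor ADAR1 (Adar), which marks the cell's own double-stranded RNA, were higher at T0 by 1.11 ± 0.18 and 0.81 ± 0.11 (edgeR adjusted p = 0.00089 and 0.00021). At T16 Eif2ak2 passed again at 0.66 ± 0.20 (adjusted p = 0.044), but not in 10 of the 23 cases with a library left out, the lowest value being 0.47 without WT T16 replicate 2 (adjusted p = 0.41).

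All 5 genes of the ISG15 system were higher at T0, the ubiquitin-like protein and the enzymes that attach and remove it. Isg15 was at 98.8, 170 and 73.3 CPM in WT and 365, 301 and 385 CPM in KO-labelled libraries at T0, and at 3420, 5002 and 2883 against 3511, 6499 and 3716 CPM at T6. T16 levels of Isg15 were 1070 and 2199 against 1690, 1407 and 1807 CPM, and T32 levels 651, 664 and 1129 against 1104, 1227 and 1290 CPM. Only at T0 were the groups apart (1.62 ± 0.33, edgeR adjusted p = 0.0081). At T16 the fitted difference was 0.00 ± 0.36, with the 2 WT libraries on either side of the KO-labelled ones. Usp18, the protease that removes ISG15 and damps receptor signalling, was at 72.9, 93.7 and 64.2 against 242, 163 and 221 CPM at T0 and at 1420, 1769 and 1432 against 1767, 2566 and 2004 CPM at T6. T16 levels of Usp18 were 483 and 806 against 904, 790 and 1035 CPM, and T32 levels 405, 340 and 617 against 657, 801 and 768 CPM. Its difference was 1.44 ± 0.24 at T0 and 0.71 ± 0.23 at T32, where the groups were apart without passing in the main fit (edgeR adjusted p = 0.0013 and 0.075). By DESeq2 (0.73) and with Y-linked transcripts as a covariate (0.89) Usp18 passed at T32. The ligase Herc6 was called at 3 time points, T0, T16 and T32, at 1.5 ± 0.18, 0.83 ± 0.20 and 0.74 ± 0.18. The activating enzyme Uba7 and the conjugating enzyme Ube2l6 passed at T0 only in the main fit, at 0.79 and 1.15. With Y-linked transcripts as a covariate Uba7 also passed at T32 (0.48).

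Of the 8 direct effectors, 7 were higher at T0 and Bst2 (tetherin) did not pass. Rsad2 (viperin) and Cmpk2, a nucleotide kinase, are neighbours on chromosome 12, at 26442746 to 26456452 and 26469204 to 26479837, transcribed away from each other with 12751 bases between them. Rsad2 was at 240, 367 and 150 CPM in WT and 1028, 742 and 895 CPM in KO-labelled libraries at T0, and at 14389, 12992 and 13847 against 19058, 16830 and 19914 CPM at T6. T16 levels of Rsad2 were 2292 and 3804 against 7483, 5704 and 7211 CPM, and T32 levels 1741, 1220 and 3673 against 4742, 6955 and 4811 CPM. No KO-labelled library overlapped a WT library at any time point, and at T32 the WT library nearest to them was replicate 3, that with Y-linked transcripts. The difference was 1.82 ± 0.34 at T0, 1.16 ± 0.38 at T16 and 1.32 ± 0.33 at T32 (by edgeR, adjusted p = 0.0039, 0.065 and 0.022). Rsad2 passed at T16 by DESeq2 (1.17) and with Y-linked transcripts as a covariate (1.60). Cmpk2 was at 104, 190 and 81.3 against 522, 276 and 490 CPM at T0 and at 7009, 7172 and 8589 against 10438, 9499 and 11057 CPM at T6. T16 levels of Cmpk2 were 1163 and 1412 against 3810, 2831 and 3873 CPM, and T32 levels 924, 612 and 2104 against 2642, 3878 and 2766 CPM. It had the same pattern of no overlap, with differences of 1.78 ± 0.36 at T0, 1.44 ± 0.42 at T16 and 1.35 ± 0.36 at T32 (by edgeR, adjusted p = 0.0091, 0.039 and 0.029). Without WT T32 replicate 2 the T32 differences of Rsad2 and Cmpk2 were 1.02 and 1.03 (adjusted p = 0.13 and 0.15). Neither passed without WT T32 replicate 1 or KO-labelled T32 replicate 2, nor Cmpk2 without KO-labelled T32 replicate 3, and without WT T32 replicate 3 they were 1.89 and 2.01.

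Mx1 and Mx2 belong to a family of dynamin-like GTPases and lie 72400 bases apart on chromosome 16, Mx1 at 97447035 to 97462907. The deposited annotation types Mx2 as a polymorphic pseudogene, so its RNA level does not show that a working protein is made. Mx1 was at 137, 182 and 89.9 CPM in WT and 470, 497 and 419 CPM in KO-labelled libraries at T0, and at 3726, 2744 and 3082 against 4071, 3003 and 4129 CPM at T6. T16 levels of Mx1 were 1127 and 1604 against 2483, 2047 and 2296 CPM, and T32 levels 702, 640 and 1401 against 1443, 1891 and 1468 CPM. The groups were apart except at T6, and the difference was 1.76 ± 0.27 at T0 and 0.81 ± 0.27 at T32 (edgeR adjusted p = 0.00075 and 0.081). That at T32 passed by DESeq2 (0.82) and with Y-linked transcripts as a covariate (1.11). Mx2 differed by 1.27 ± 0.33 at T0, just inside the threshold (adjusted p = 0.0498), and in 15 of 23 cases did not pass when a library was left out. Mx2 also fell furthest after T6, to 13.7% of its T6 level in WT and 17.8% in KO-labelled libraries at T32. Isg20 (an RNA exonuclease), Samd9l and the cytidine deaminase Apobec3 were higher at T0 by 1.56, 1.30 and 0.62. None passed at a later time point in the main fit. With Y-linked transcripts as a covariate Isg20 passed at T6, T16 and T32 (0.88, 0.88 and 0.97). Samd9l passed at T16 by DESeq2 (0.84) and at T32 without the 4 libraries that stood apart (0.52).

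Among the 7 genes linked to the nucleus or to transcription, all were higher at T0. Phf11d was at 18.6, 20.7 and 13.9 CPM in WT and 95.5, 52.0 and 70.1 CPM in KO-labelled libraries at T0, and at 485, 265 and 447 against 605, 348 and 738 CPM at T6. Its T16 levels were 155 and 233 against 331, 258 and 329 CPM, and its T32 levels 152, 136 and 203 against 251, 276 and 254 CPM. The T0 difference of 2.04 ± 0.29 (edgeR adjusted p = 0.0003) was kept under every alternative. Phf11b, at 1.79 ± 0.23, lies 6055 bases away on chromosome 14, and the 2 genes are close copies, so the split of reads between them is uncertain. Helz2, a coactivator, Sp100 and Pml, components of nuclear bodies, and the partners Nmi and Ifi35 were higher at T0 by 1.68, 0.88, 0.87, 0.73 and 0.91. None of the 5 passed later in the main fit. By DESeq2 Helz2, Sp100 and Pml passed at T16 (0.84, 0.40 and 0.56). With only the T32 libraries Nmi and Ifi35 passed at T32 (0.38 and 0.40).

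Of the 4 ADP-ribosylation genes Parp9, Parp12 and Parp14 were higher at T0, by 0.92 ± 0.11, 1.10 ± 0.19 and 1.03 ± 0.15 (edgeR adjusted p = 7.4e-05, 0.0023 and 0.00043). Dtx3l, the ubiquitin ligase that partners PARP9, overlaps Parp9 by 682 bases on the opposite strand of chromosome 16, and the library kit does not mark strand, so reads there cannot be told apart. Dtx3l was at 7.98, 10.3 and 6.47 CPM in WT and 72.1, 14.9 and 19.6 CPM in KO-labelled libraries at T0. With LPS it was at 31.1 CPM in WT T6 replicate 2, 37.1 CPM in KO-labelled T6 replicate 2 and 13.5 CPM in WT T16 replicate 2, against 67.6 to 273 CPM in all other LPS libraries. Together with KO-labelled T0 replicate 1 these are the 4 libraries that stood apart. Parp9 did not separate them: at T6 replicate 2 was at 680 CPM in WT, between 665 and 692 CPM, and at 727 CPM in KO-labelled libraries, against 779 and 832 CPM. Lgals3bp, a secreted glycoprotein, was at 2159 CPM in KO-labelled T0 replicate 1 against 591 and 681 CPM in the other KO-labelled T0 libraries, and at 746 and 1163 CPM in replicate 2 of WT and KO-labelled at T6 against 2229 to 3663 CPM. Bst2 moved in the opposite direction at T6, to 1956 and 2775 CPM in these 2 libraries against 779 to 1190 CPM. With these 4 libraries left out of the fit all 3 genes were higher at T0, Bst2 by 1.05, Dtx3l by 1.07 and Lgals3bp by 0.79 (edgeR adjusted p = 0.0023, 0.019 and 0.0021). Without KO-labelled T0 replicate 1 alone their values were 1.05, 1.07 and 0.79 and none passed (adjusted p = 0.42, 1 and 0.82), and Lgals3bp passed without KO-labelled T0 replicate 2 (1.95, adjusted p = 0.031), without replicate 2 of either genotype at T6 (1.64 each), with Y-linked transcripts as a covariate (1.79, adjusted p = 0.045) and by DESeq2 (1.65).

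**Figure D4:**
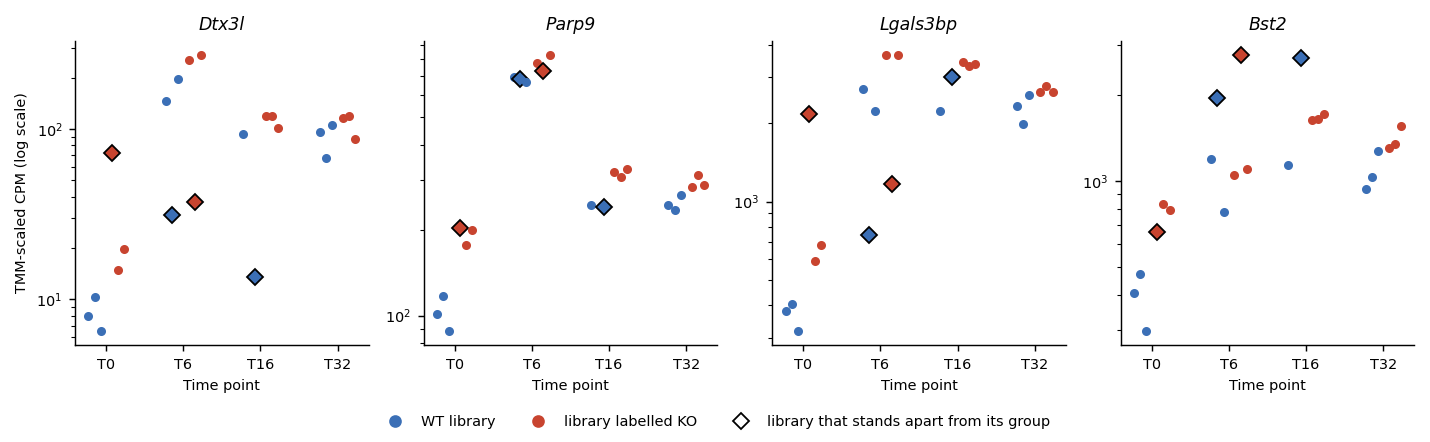
TMM-scaled CPM (y axes, log scale) of Dtx3l, Parp9, Lgals3bp and Bst2 in every library by time point (x axis), with black-edged diamonds for the 4 libraries that stood apart. In KO-labelled T0 replicate 1 Dtx3l was at 72.1 CPM against 14.9 and 19.6 CPM, and in replicate 2 at T6 it was at 31.1 and 37.1 CPM, whereas Parp9 in the same libraries lay close to its group.

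The remaining genes include Ifi44, whose T0 difference had the smallest p of the 43, and Ifi27, the only member called lower at T0. Ifi44 (chromosome 3, 151730922 to 151749960) was at 41.8, 31.9 and 28.4 CPM in WT and 263, 136 and 181 CPM in KO-labelled libraries at T0, and at 568, 633 and 662 against 923, 802 and 1105 CPM at T6. T16 levels of Ifi44 were 416 and 316 against 737, 645 and 770 CPM, and T32 levels 312, 351 and 365 against 479, 691 and 570 CPM. Every KO-labelled library was above every WT library at all 4 time points. The difference was 2.51 ± 0.22 at T0, 0.60 ± 0.21 at T6, 0.97 ± 0.24 at T16 and 0.76 ± 0.21 at T32 (adjusted p in edgeR = 1.7e-06, 0.28, 0.018 and 0.032). It narrowed from T0 by 1.91 ± 0.29 to T6 and by 1.75 ± 0.29 to T32, the changes of the genotype difference that passed (adjusted p = 0.011 and 0.0098; 0.095% and 0.298% of all genes were called lower). From T0 to T16 it narrowed by 1.54 ± 0.31 (adjusted p = 0.063), where 0 of the 43 genes passed by edgeR (0.0253% of all genes were called higher and 0.0444% lower), 27 had an unadjusted p under 0.05 and DESeq2 called 8. The counts of 27 and 8 have no share of all genes beside them. The LPS comparisons of a genotype share its T0 libraries.

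Ifi27 (chromosome 12, 103434211 to 103440239), which encodes a small hydrophobic protein, was the gene lower in KO-labelled libraries at T0. Its levels there were 51.2, 46.7 and 48.8 CPM in WT against 22.0, 28.3 and 23.7 CPM, and at T6 32.4, 40.1 and 30.4 against 16.8, 30.0 and 16.8 CPM. At T16 it was at 14.2 and 19.1 against 10.8, 9.17 and 12.8 CPM, and at T32 at 10.9, 11.2 and 8.30 against 9.63, 6.76 and 10.6 CPM. KO-labelled libraries were below WT without overlap up to T16, and the genotypes overlapped at T32. The difference of -0.99 ± 0.22 passed at T0 (edgeR adjusted p = 0.016), though not without replicate 1 or 3 of either genotype (adjusted p up to 0.098), and not at T6 or T16 (-0.70 and -0.61; adjusted p = 0.21 and 0.12). At T6 it passed without KO-labelled T6 replicate 2 (-1.02, adjusted p = 0.035) and without the 4 libraries that stood apart (-0.90, adjusted p = 0.022). LPS lowered Ifi27 by T32 by 2.27 ± 0.22 in WT and by 1.46 ± 0.22 in KO-labelled libraries (adjusted p = 1.7e-07 and 3.6e-05), against the course of the other interferon-induced genes. Xaf1, Epsti1, Tor3a and the receptor chaperone Rtp4 were higher at T0 by 1.19, 0.90, 1.28 and 1.0 and did not pass later in the main fit. With Y-linked transcripts as a covariate Epsti1 passed at T16 (0.70), and Xaf1, Tor3a and Rtp4 at T32 (0.51, 0.58 and 0.48).

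Genes of the pathway outside the 43 were read from lists by step. At T0, 9 of 31 tested were higher and 0 lower, where 1.83% and 0.114% of all genes were. The number was 4 without KO-labelled T0 replicate 1 or WT T0 replicate 1 or 3, 5 without KO-labelled T0 replicate 3, 4 on library totals or with only the T0 libraries, and 5 with no low-count filter. Irf7, Stat2 and Zbp1 passed in all of these. From the interferon receptor to the nucleus 4 of 9 passed, of which 3 are given: Irf7 was at 405 ± 90.2 CPM in WT and 1585 ± 423 CPM in KO-labelled libraries, Stat2 at 239 ± 54.4 against 622 ± 57.6 CPM and Irf9 at 86.3 ± 4.62 against 116 ± 7.08 CPM (SD, n = 3 each). On the log2 scale KO-labelled exceeded WT by 1.97, 1.38 and 0.43 (edgeR adjusted p = 8e-05, 8.2e-05 and 0.023). Around STING 3 of 5 passed, the nucleic acid sensor Zbp1 at 1.59, Mb21d1 (cGAS) at 0.70 and Samhd1 at 0.57, and among regulators of RIG-I-like receptors 2 of 7, Zc3hav1 at 0.53 and the RIG-I ubiquitin ligase Trim25 at 0.50. Of the 10 genes that lead from Toll-like receptor 4 to interferon 0 passed at T0 by edgeR, with 3 at an unadjusted p under 0.05 and a median of 0.19. At T6 0 of the 31 passed by edgeR, with 6 at an unadjusted p under 0.05 and 2 called by DESeq2. At T16 the kinase Tbk1 (0.61), its adaptor Tank (1.09), Trim25 (0.74), Zc3hav1 (0.61) and Tax1bp1 (0.72) were higher, 5 of 31 against 4.16% of all genes. Without WT T16 replicate 2 none of these 5 passed, 2 did without KO-labelled T16 replicate 1 or 3, 11 genes did without WT T16 replicate 1, and 0 with only the T16 libraries. Higher at T32 were Tbk1 (0.43) and Trim25 (0.45), and the LPS coreceptor Cd14 was lower (-0.61, adjusted p = 0.026), against 3.05% and 3.34% of all genes. At T32 0 passed without WT T32 replicate 2 or KO-labelled T32 replicate 2, and 1 did without WT T32 replicate 1 or KO-labelled T32 replicate 3. Over the other settings 1 to 11 passed, and on library totals 3 did, all lower. Stat2, Irf7 and Irf9 did not pass at T6, T16 or T32.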

How the data were processed

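The authors deposited, for each library, a table of whole-number counts per gene, which per the file headers count reads that align uniquely to the gene model, and nRPKM, which per the file headers is an RPKM adjusted by a size factor. Per the labels' protocols, libraries came from an Illumina kit that does not mark strand and were sequenced as single reads, and per the submitters' processing notes GSNAP and GRCm38 were used; no source used here names the annotation or the counting tool. The members, gene lists and tests were chosen with earlier results of these data known. Depth was 19455080 to 44097733 counts per library (TMM factors 0.68 to 1.45), and more counts give less counting error. All pairs of replicates differed beyond counting noise: over genes with at least 20 counts, chi-square divided by its degrees of freedom was 13.92 to 188.1.

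Counts of all 23 libraries were fitted together in edgeR 4.0.16 (R 4.3.3; TMM scaling, filterByExpr, robust quasi-likelihood, 8 groups, no covariate). Of 52636 genes 15782 were tested, and p-values were adjusted over these by Benjamini-Hochberg; calls are at 0.05. Differences are log2 values ± SE and log2(CPM + 1) was used only in 1 plot. nRPKM served only to compare levels between genes. The shares of all genes beside counts of calls come from the main fit at an adjusted p under 0.05. Counts at an unadjusted p, by DESeq2 or under another alternative are given without such a share. They therefore do not show whether calls among the 43 genes changed more than calls among all genes. Tested on simulated data for the T0 comparison (15605 genes), the fit called 78% of 100 genes set to differ 2-fold, 100% of 100 set to differ 4-fold, and 7 unchanged genes. The genes set to differ excluded those with low T0 levels, and no simulated library was made to stand apart. These rates therefore do not cover scarce genes such as Ifnb1 or the libraries that stood apart. Values in every library are given for 13 fixed genes, for the 3 called genes with the largest change per direction and time point, and for the called genes of the changes in genotype difference; other genes appear as examples of their role. Dtx3l, Lgals3bp, Bst2 and Parp9 were singled out after their values were seen. Alternatives were RLE factors, library totals, no low-count filter, Y-linked transcripts as a covariate, only the libraries compared, each library left out, and DESeq2 1.42.0. Leaving out the 4 libraries that stood apart, or the 4 WT libraries with Y-linked transcripts, was chosen after seeing the data, as was running all alternatives on the pathway genes outside the 43.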

Additional observations from a re-analysis of the deposited data

Results flagged for a closer look

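The genotype difference of Ifi44 changed with LPS by its own test: from T0 it changed by -1.91 to T6 and by -1.75 to T32 on the log2 scale (edgeR adjusted p = 0.011 and 0.0098), because WT levels rose further than KO-labelled levels from a lower start. Of the 43 genes it was the only one for which this test passed. The T6 change did not pass without KO-labelled T6 replicate 1 (-1.90, adjusted p = 0.058), without WT T0 replicate 3 (-1.80, adjusted p = 0.065) or with only the libraries compared (-1.93, adjusted p = 0.19). The T32 change did not pass when the 4 WT libraries that carry Y-linked transcripts were left out (-1.66, adjusted p = 0.069).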

How the results depend on the processing

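No paired analysis was possible because the labels carry no replicate numbers and tie no library to an animal or culture. The count of genes called at T0 was 33 to 37 under the alternatives other than leaving out a library, except 23 with only the libraries compared; without 1 library it was 25 to 37. Without 1 library the counts were 0 to 1 at T6 (1 without KO-labelled replicate 2), 0 to 11 at T16, 1 to 10 at T32 and 39 to 41 on average. For LPS they were 41 to 42, 40 to 41 and 40 in WT and 40 to 41, 39 to 42 and 34 to 42 in KO-labelled libraries (T6, T16, T32), and for T32 against T6 36 to 38 and 37 to 39. For the change of the genotype difference they were 0 to 5 (T6; 0 without KO-labelled T6 replicate 1 or WT T0 replicate 3), 0 to 13 (T16; 13 without WT T16 replicate 1) and 1 to 3 (T32). Library totals gave 8, 2 and 4 such changes at T6, T16 and T32; no low-count filter gave 3 and 1 at T6 and T16, and 2 calls between genotypes at T16. Y-linked transcripts as a covariate gave 1, 19 and 18 calls between genotypes at T6, T16 and T32 and 9, 2 and 5 changes. Without the 4 libraries that stood apart there were 1 and 19 calls at T6 and T32 and 3 and 9 changes at T6 and T32. When the 4 WT libraries that carry Y-linked transcripts were left out, there were 2 and 14 calls at T16 and T32 and 5 and 0 changes at T6 and T32. Only the libraries compared gave 23, 0 and 15 calls at T0, T16 and T32 and 0 changes at T6. DESeq2 gave 1, 17 and 13 calls at T6, T16 and T32 and 14, 8 and 9 changes. On library totals the sign turned for Tmem173 with LPS at T6 in WT (-0.71), Sp100 at T32 in KO-labelled libraries (-0.0068) and Epsti1 at T32 against T6 in KO-labelled libraries (0.0147). The cause of these shifts was not tested.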
